A study of Mus musculus with 23 samples.

Results

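Matrix metalloproteinases (MMPs), the related ADAM and ADAMTS proteases and the tissue inhibitors of metalloproteinases (TIMPs) were described in the endometrium of 23 mouse uterine horns. The genes were taken by symbol: all MMP, ADAM and ADAMTS genes with a numbered symbol, and Timp1 to Timp4. Of 78 such genes in the name table, 53 were among the 18682 features counted: 16 of 22 MMPs, 4 of 4 TIMPs, 15 of 33 ADAMs and 18 of 19 ADAMTS genes. The other 25, among them Mmp13, Mmp24, Adamts20 and many ADAMs known from the testis, are not analysed here. Of the 53 genes, 47 passed the filter on low counts and were tested, and 6 did not: Mmp8, Mmp16, Adamts3, Adamts8, Adamts13 and Adamts18. These 6 are described by their levels only.

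All horns came from female C57BL/6 mice; the labels give no age. The study injured the uterus with 70° ethanol, injected a treatment into the horns 4 days later and took tissue 2 weeks after injection, and the endometrium was pressed out of each horn before bulk RNA sequencing. The groups were SHAM (6 horns), PBS, a saline (5), HG, an endometrial-derived hydrogel (6), and HG+ORG, the same hydrogel with human endometrial organoids (6). The labels do not say what was done to the SHAM horns, and reads of human cells cannot be told apart from mouse reads in these counts. Each group is a set of single horns: 21 mice were sacrificed for 25 horns, of which 2 were discarded, so some horns shared a mouse. The labels do not tie horns to mice, and p-values over horns may therefore be too small.

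MMPs are zinc proteases that cut collagens, gelatin, laminins and proteoglycans of the extracellular matrix, and most are made as inactive proforms that other proteases open. TIMPs bind active MMPs and, in the case of Timp3, also several ADAM and ADAMTS proteases. ADAM proteins sit in the cell membrane, where the active ones release the outer parts of growth factors, cytokines and receptors, while ADAMTS enzymes are secreted and cut proteoglycans, procollagens and other matrix proteins. In the uterus these enzymes are known for remodelling the stroma over the cycle, at implantation and after birth, and for repair after injury.

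In outline, most HG horns had higher levels than the SHAM horns of many secreted ADAMTS genes, of Adam19 and Adam22 and of Timp3, and lower levels of the sheddases Adam10 and Adam17 and of Mmp14. In the HG+ORG group the stromelysin Mmp3, the gelatinase Mmp9, Mmp19, Timp1 and Adam8 reached levels at least 4.03 times those of any other horn, and all of these peaks were in replicate 18. Mmp7, the most abundant member per length, varied widely between the horns of every group. None of these differences passed adjustment over all genes with the main test.

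The counts per library ranged from 7920918 to 14902952 (median 12701407), and the 53 genes took 0.129 to 0.484% of them. Levels below are in CPM, read counts relative to the library total, with totals adjusted by the trimmed mean of M-values (TMM), and 3 counts, the floor used here, correspond to 0.201 to 0.379 CPM. HG+ORG replicate 18 stood apart from all other horns. Its 12 macrophage and monocyte markers summed to 20940 CPM, against 62.7 to 1887 CPM in the other 22 horns. Its 10 epithelial markers summed to 1000.2 CPM, against 4033 to 15447 CPM elsewhere, and its stromal markers summed to 8687 CPM, against 133 to 2526 CPM. By the mean log2 CPM of the stromal markers, however, that horn (6.58) was below HG replicates 14 (7.54) and 17 (6.94) and PBS replicate 10 (6.74). SHAM replicates 5 and 6 were nearer to each other than any other pair of a group, with a chi-square of 2.90 per degree of freedom over genes, against 17.9 for the next nearest pair. They still differed by more than sampling noise and were kept as separate samples. The labels do not say whether these horns came from the same mouse, and they were not left out together. Results that rest on HG+ORG replicate 18 are given with and without it.

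Most of these genes varied more from horn to horn than other genes did. The median within-group SD was 1.31 on the log2 CPM scale over the 47 tested members, against 0.557 over all 17708 genes tested. Among genes with a mean of at least 10 CPM the medians were 1.33 for 25 members and 0.429 for 10594 genes. A few high horns can lift a gene over that mean. Mmp3 had a mean of 26.1 and a median of 0.548 CPM, and Mmp9 had 56.1 and 6.68 CPM. This cut therefore does not show the spread of members that were abundant in most horns. Mmp7 and Mmp9 were among the most variable genes of the table, with within-group SDs of 2.83 and 2.74. Adam17 was among the least variable, with an SD of 0.20, at the percentile 3.5 of all genes tested. HG+ORG replicate 18 was the highest of all 23 horns for 18 of the 53 genes, HG replicate 14 for 10, HG replicate 16 for 6 and SHAM replicate 3 for 5. PBS replicate 8 was the lowest horn for 10 genes. The share of all genes with their extreme level in each of these horns was not counted, so these counts have no baseline.

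**Figure D1:**
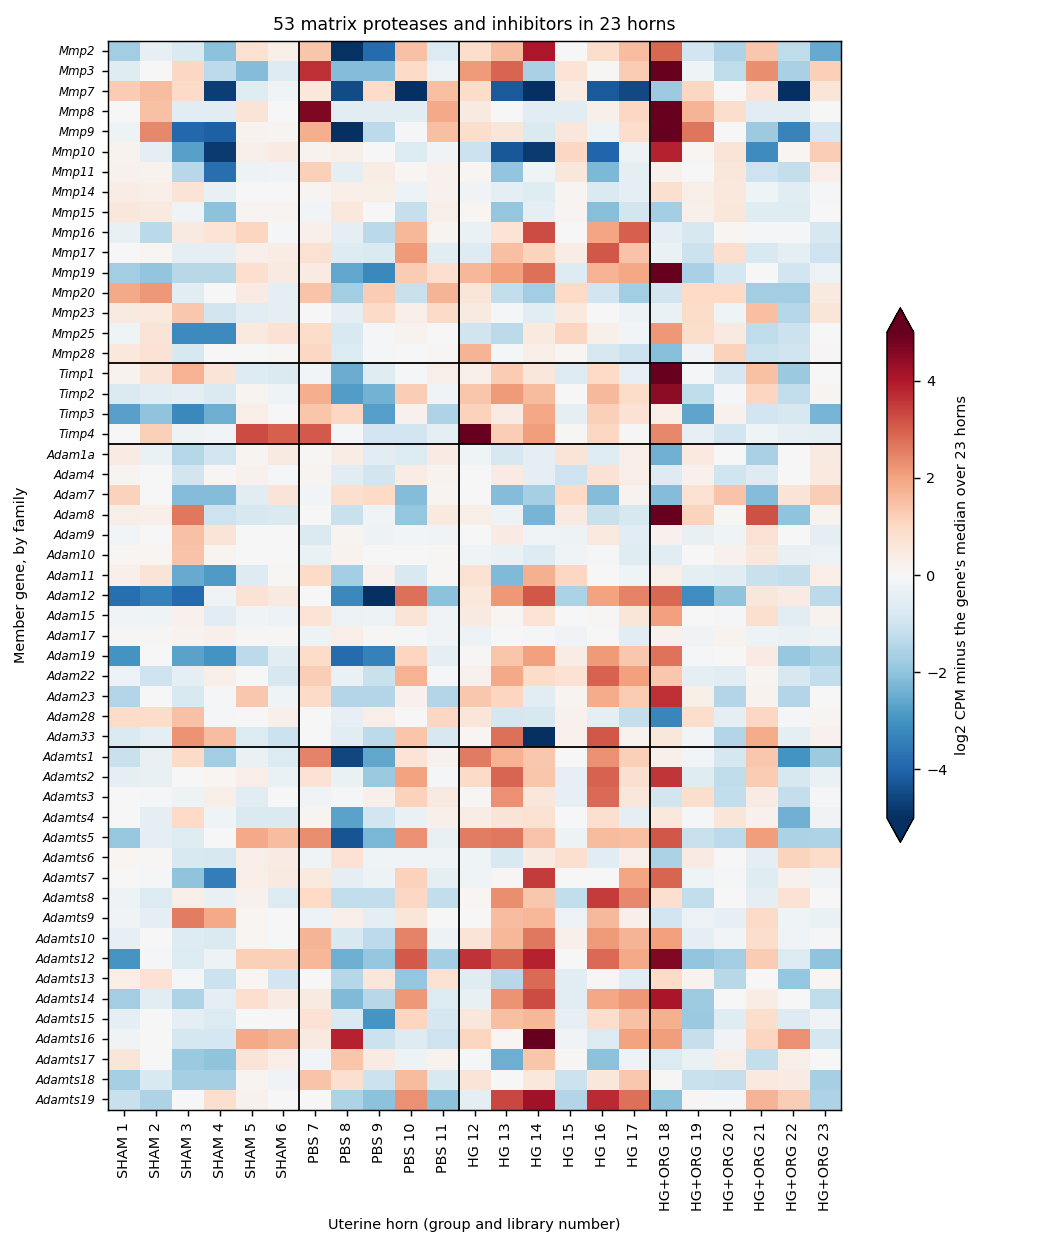
Heat map of the 53 genes (rows, by family) in 23 horns (columns, by group and library number); colour is log2 CPM minus the gene's median over all horns, cut at 5 on either side. HG+ORG replicate 18 holds the darkest cells for Mmp3, Mmp8, Mmp9, Mmp19, Timp1 and Adam8, most ADAMTS rows are red in HG replicates 13, 14 and 16, and Adam10 and Adam17 are near white throughout.

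Per kilobase of exon in the GRCm38 annotation, the scale on which genes can be compared with each other, Mmp7 led with a median of 268 CPM per kb over the 23 horns. Adam10 (71.0), Mmp14 (54.2), Adam9 (40.2), Mmp23 (24.5), Mmp15 (23.4) and Adam17 (18.3 CPM per kb) came next. Timp1 (11.0) and Timp2 (10.4 CPM per kb) were the most abundant inhibitors by this measure, above Timp3 (2.40) and Timp4 (0.0256). The gelatinases Mmp2 (1.99) and Mmp9 (1.89), the stromelysin Mmp3 (0.304) and the collagenase Mmp8 (0.0301 CPM per kb) were low in a typical horn. No ADAMTS gene exceeded Adamts1, with 3.93 CPM per kb.

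No gene of the table, and so no member, passed an adjusted p of 0.05 in any of the 6 pairwise comparisons or in the test over all 4 groups (edgeR's quasi-likelihood test with Benjamini-Hochberg adjustment over 17708 genes; 0% called in each of these 7 tests). limma-trend also called no member. DESeq2 called 1 member in HG+ORG vs HG (Adam8), 2 in HG vs SHAM (Adam22 and Adamts10) and 2 over the 4 groups (Adam8 and Adam22), and none in the other comparisons. Of all 17708 genes it called 162, 281 and 278 in these tests. It also called 83 genes in HG+ORG vs SHAM and 1 in PBS vs SHAM, with no member among them. The counts at an unadjusted p under 0.05 are given beside the same share of all genes. In PBS vs SHAM 2 of 47 members met it, against 2.17% of all genes: Adamts10 with a higher level in PBS (1.52% of all genes) and Adam9 with a lower one (0.655%). In HG vs PBS 2 met it, against 3.37% of all genes: Adamts19 higher (2.38% of all genes) and Mmp14 lower in HG (0.988%). In HG+ORG vs PBS 5 met it, all higher in HG+ORG, against 6.09% of all genes, 4.86% higher and 1.23% lower. In HG vs SHAM 16 of 47 met it, against 11.3% of all genes, 13 of them higher (9.15%) and 3 lower in HG (2.12%). In HG+ORG vs HG 13 met it, against 9.81% of all genes, 6 higher (5.18%) and 7 lower in HG+ORG (4.63%). In HG+ORG vs SHAM 9 met it, against 9.91% of all genes, 8 of them higher (8.09%) and 1 lower (1.82%), and over the 4 groups 13 met it, against 10.1% of all genes. Full separation of 2 groups occurred only in HG vs SHAM, for Adam19 and Adamts10, higher in HG (1.19% of all genes), and for Adam10 and Adam17, lower in HG (0.243%). No member's groups were fully apart in the other comparisons. The shares of all genes that were, higher and lower, were 0.181 and 0.113% in PBS vs SHAM, 0.0734 and 0.0791% in HG vs PBS and 0.0508 and 0.0565% in HG+ORG vs PBS. They were 0.0282 and 0.152% in HG+ORG vs HG and 0.0621 and 0.102% in HG+ORG vs SHAM.

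Among the MMPs, Mmp7 (matrilysin), a small secreted enzyme that uterine epithelium is known to make, varied widely between the horns of every group. In SHAM the lowest, median and highest levels were 10.9, 401 and 827 CPM. The PBS horns stood at 6.01, 12.7, 418, 545 and 814 CPM. In HG the lowest, median and highest were 1.15, 15.4 and 547 CPM, and in HG+ORG they were 8.97, 361 and 582 CPM. In each group some horns were at or under 80.9 CPM and the rest at or above 190.1 CPM, and all 4 groups overlapped. The horns at or under 80.9 CPM numbered 9: 1 SHAM, 2 PBS, 4 HG and 2 HG+ORG. They ran from 1.15 to 80.9 CPM, so they were no tight set. The fitted log2 fold in HG vs SHAM was -1.39 ± 1.24 (SE; edgeR, adjusted p = 0.719).

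The same 9 horns were the 9 lowest for Ltf, lactotransferrin, a secretory protein of uterine epithelium that is known to respond to estrogen. Ltf was 25.8 to 1834 CPM in these 9 horns and 3016 to 17725 CPM in the other 14. Ltf was chosen as the partner after the values had been seen, and the cut at 9 horns was chosen by hand, so this is a description. The 10 epithelial markers summed to 1000.2 to 11673 CPM in the 9 horns and 5624 to 15447 CPM in the 14, and those ranges overlapped.

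The promoters of Mmp7 and of the stromelysins Mmp3 and Mmp10, which lie on the same chromosome, are shown with that of Adam19 because they are the members whose promoter held the AP-1 binding word. AP-1 is a pair of Fos and Jun proteins through which injury and inflammatory signals are known to switch on MMP genes. The windows run from 250 bases before to 50 bases after the RefSeq start site (build GRCm38.p6, all on the plus strand), 5′ to 3′, with the word in capitals. They are Mmp3 at chr9:7445572-7445871, Mmp10 at chr9:7502092-7502391, Mmp7 at chr9:7691840-7692139 and Adam19 at chr11:46055734-46056033.
Mmp3: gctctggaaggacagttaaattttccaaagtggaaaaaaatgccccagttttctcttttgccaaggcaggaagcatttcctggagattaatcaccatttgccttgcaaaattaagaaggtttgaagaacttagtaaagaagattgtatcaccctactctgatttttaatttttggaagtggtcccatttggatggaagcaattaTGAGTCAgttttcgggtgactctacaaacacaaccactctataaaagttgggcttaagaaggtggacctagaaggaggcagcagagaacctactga
Mmp10: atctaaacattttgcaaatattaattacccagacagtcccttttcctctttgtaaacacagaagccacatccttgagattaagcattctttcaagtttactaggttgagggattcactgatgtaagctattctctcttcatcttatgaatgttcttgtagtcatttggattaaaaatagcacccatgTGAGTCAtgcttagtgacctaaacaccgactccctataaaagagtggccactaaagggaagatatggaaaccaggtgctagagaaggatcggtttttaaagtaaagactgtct
Mmp7: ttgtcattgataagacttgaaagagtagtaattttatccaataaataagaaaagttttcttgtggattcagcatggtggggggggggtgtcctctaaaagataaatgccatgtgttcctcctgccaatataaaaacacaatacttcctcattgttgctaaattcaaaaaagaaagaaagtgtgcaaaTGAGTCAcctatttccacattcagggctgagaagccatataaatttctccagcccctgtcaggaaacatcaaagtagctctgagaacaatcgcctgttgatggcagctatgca
Adam19: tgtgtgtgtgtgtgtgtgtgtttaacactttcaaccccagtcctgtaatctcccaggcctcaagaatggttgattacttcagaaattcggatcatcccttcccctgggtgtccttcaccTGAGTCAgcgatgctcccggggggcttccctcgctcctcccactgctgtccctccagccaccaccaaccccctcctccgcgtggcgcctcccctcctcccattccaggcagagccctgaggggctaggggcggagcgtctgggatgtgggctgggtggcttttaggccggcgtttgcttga
The word searched was TGACTCA on either strand, and it reads TGAGTCA in all 4 windows. It begins 46 bases before the start site in Mmp3, 63 before it in Mmp10 and Mmp7, and 131 before it in Adam19. It was found in 4 of 36 member promoters with an entry (11.1%) and in 1709 of 32851 promoters of the table (5.20%), and 21 members had no entry. A match of 7 letters is no binding site by itself, and the counts were mapped to another build (GRCm39).

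The stromelysins Mmp3 and Mmp10, secreted enzymes that cut many matrix proteins and open other proMMPs, were low in most horns. In SHAM the lowest, median and highest levels of Mmp3 were 0, 0.297 and 1.28 CPM. In PBS they were 0, 0, 0.422, 1.20 and 8.68 CPM by horn. In HG the lowest, median and highest were 0.0717, 1.25 and 5.09 CPM. Most of these values are at a few counts. In HG+ORG Mmp3 ran from 0.0741 to 3.41 CPM in 5 horns and was 569.7 CPM in replicate 18, 65.6 times the next highest horn of the study. With all horns the fitted log2 fold in HG+ORG vs PBS was 5.51 ± 1.96 (SE; edgeR, adjusted p = 0.712), and without replicate 18 it was -0.95 ± 1.22. Against HG it went from 5.66 ± 1.83 to -0.81 ± 1.18, and against SHAM from 7.81 ± 2.07 (adjusted p = 0.209) to 1.33 ± 1.25.

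For Mmp10 the SHAM horns ran from 0 to 5.63 CPM (median 3.85). The PBS horns were close together, at 2.57, 3.73, 4.18, 4.72 and 5.19 CPM. In HG the level ran from 0 to 8.65 CPM (median 1.02), with 3 horns at or under 0.117 CPM. In HG+ORG it ran from 0.330 to 10.1 CPM in 5 horns and was 62.0 CPM in replicate 18. The log2 fold in HG+ORG vs HG was 2.62 ± 1.14 (edgeR, adjusted p = 0.443) with that horn and 1.12 ± 1.01 without it. Mmp11, the third stromelysin, which is known from stromal remodelling, was at 15.1 to 21.8 CPM as a median in each group, and the groups overlapped. Its log2 fold in HG vs PBS was -0.76 ± 0.55 (edgeR, adjusted p = 0.991). SHAM replicate 4 had the lowest Mmp11 level, 1.23 CPM.

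The gelatinases cut denatured collagen and the type IV collagen of basement membranes. Mmp9, known as the gelatinase of neutrophils and macrophages, was at 0.247 to 36.2 CPM in SHAM (median 6.45). In PBS it was 0, 2.57, 6.35, 19.2 and 23.7 CPM. In HG it was in a narrower range, 3.94 to 12.6 CPM (median 10.1). In HG+ORG it ran from 0.519 to 44.1 CPM in 5 horns and was 1069 CPM in replicate 18. Its log2 fold in HG+ORG vs PBS was 4.17 ± 1.65 (edgeR, adjusted p = 0.751) with replicate 18 and 0.12 ± 1.18 without it. Against HG it was 4.36 ± 1.54 and 0.29 ± 1.13, and against SHAM 4.28 ± 1.54 and 0.24 ± 1.12. The 5 horns with the highest Mmp9, HG+ORG replicates 18 and 19, SHAM replicate 2 and PBS replicates 7 and 11, were also the 5 highest for the neutrophil genes Csf3r and S100a9. Csf3r was 20.7 to 346 CPM in these 5 and at most 11.5 CPM in the other 18. The match was less exact for the sum of the 6 neutrophil markers other than Ltf. By that sum HG replicate 17 (71.87 CPM), a horn with at most 12.6 CPM of Mmp9, stood beside PBS replicate 11 (71.86 CPM).

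Mmp8, the collagenase of neutrophils, was at 0 in 9 horns and under 3 counts in 15. It was 0 to 0.480 CPM in SHAM, 0 to 0.322 CPM in HG and 0 to 0.597 CPM in 5 HG+ORG horns. The PBS horns had 0, 0, 0, 0.704 and, in replicate 7, 5.66 CPM, and in HG+ORG replicate 18 it was 41.3 CPM. Mmp8 was removed by the filter and was not tested. The neutrophil markers other than Ltf, 6 genes in the table, summed to 4210 CPM in HG+ORG replicate 18, and to 264 CPM or less elsewhere; their part in the Mmp8 and Mmp9 levels was not tested.

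Mmp2, the gelatinase of fibroblasts and other stromal cells, was higher in HG than in most SHAM horns. SHAM had 1.48 to 11.4 CPM (median 4.48) and HG had 6.71 to 112 CPM (median 16.0), and the groups overlapped. The PBS horns were split: 0.0673 and 0.322 CPM in replicates 8 and 9, 4.15 CPM in replicate 11, and 17.7 and 18.9 CPM in replicates 7 and 10. HG+ORG ran from 1.05 to 49.5 CPM (median 3.01). The fitted log2 fold in HG vs SHAM was 2.51 ± 1.07 (edgeR, adjusted p = 0.365), and it was 1.40 without HG replicate 14, the horn at 112 CPM. Of the 5 horns with the highest Mmp2, 4 were among the 5 highest for the stromal receptor gene Pdgfra, which was also so for Adam12 and Adamts10. The number of horns in each match of a member with a marker was chosen by hand, and other pairs matched less. Timp2 with Dcn and Timp3 with Pecam1 shared 3 of their 5 highest horns. Adam33 and Myh11 shared 2 of 4, and Adam10 and Epcam 2 of 3.

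**Figure D2:**
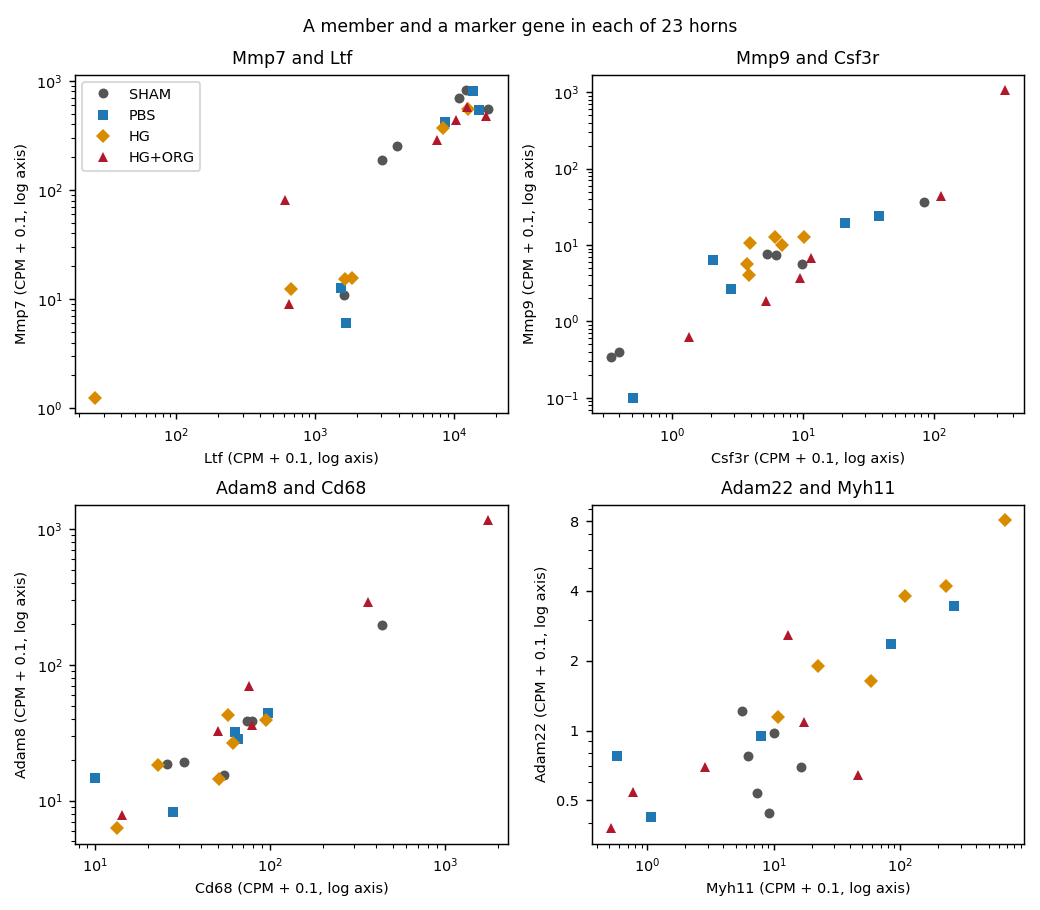
Levels of a member (vertical) and a marker gene (horizontal) in each of 23 horns, in CPM + 0.1 on log axes, with 1 point per horn and a symbol per group. The 9 horns lowest for Mmp7 are the 9 lowest for Ltf, and the highest horns for Mmp9, Adam8 and Adam22 are also the highest for Csf3r, Cd68 and Myh11.

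The membrane-type MMPs act at the cell surface. Mmp14, which activates proMMP2 and cuts fibrillar collagen, was the steadiest of the abundant MMPs. It was 248 to 518 CPM in SHAM (median 368). PBS levels were 265, 359, 370.4, 401 and 409 CPM. The HG horns had 196 to 355 CPM (median 231), and 5 of the 6 HG horns were at or under 282 CPM. In HG+ORG it was 226 to 569.8 CPM (median 353). Most HG horns were below most horns of the other groups, and the HG range overlapped with each of them. The log2 fold was -0.57 ± 0.22 in HG vs SHAM (edgeR, adjusted p = 0.316), -0.52 ± 0.23 in HG vs PBS (adjusted p = 0.991) and 0.57 ± 0.22 in HG+ORG vs HG (adjusted p = 0.359), the HG horns being common to all 3. Without HG+ORG replicate 18 the last of these was 0.39 ± 0.21.

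Mmp15, another membrane-type enzyme, was 29.0 to 185 CPM over the 23 horns, with group medians of 137 (SHAM), 128 (PBS), 79.6 (HG) and 105 CPM (HG+ORG). Its log2 fold in HG vs PBS was -0.62 ± 0.46 (edgeR, adjusted p = 0.991). Mmp17, anchored to the membrane by a lipid, was higher in most HG horns, at a low level. It was 1.09 to 2.12 CPM in SHAM (median 1.65) and 0.885, 0.943, 1.06, 2.83 and 7.55 CPM in PBS. HG levels were 0.959 to 15.0 CPM (median 4.08), and those in HG+ORG 0.671 to 2.93 CPM (median 0.996). The log2 fold was 1.69 ± 0.60 in HG vs SHAM (edgeR, adjusted p = 0.276) and -2.02 ± 0.61 in HG+ORG vs HG (adjusted p = 0.273). Mmp25 was under 3 CPM in all horns but HG+ORG replicate 18, with 6.19 CPM, and Mmp16, untested, was at most 3.65 CPM.

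Among the remaining MMPs, Mmp19, known from macrophages and vessel walls, was 0.617 to 5.28 CPM in SHAM (median 0.988). The values in PBS were 0.161, 0.337, 3.90, 5.28 and 7.04 CPM. In HG it was 1.78 to 20.1 CPM (median 10.6), with 5 of 6 horns above every SHAM and PBS horn. HG+ORG levels were 0.821 to 2.86 CPM in 5 horns and 354 CPM in replicate 18. The log2 fold in HG+ORG vs PBS was 4.17 ± 1.49 (edgeR, adjusted p = 0.714) with that horn and -0.92 ± 0.79 without it, and in HG+ORG vs SHAM 4.82 ± 1.43 (adjusted p = 0.223) and -0.26 ± 0.76. For HG+ORG vs HG it went from 2.48 ± 1.273 to -2.61 ± 0.81 (edgeR, adjusted p = 0.194 without it). Mmp23 (21.2 to 162 CPM), Mmp28 (0.990 to 15.9 CPM) and the enamel protease Mmp20 (0 to 2.19 CPM) overlapped between all groups. By family, 7 of the 14 MMPs tested had a fold above 0 in HG vs SHAM (median -0.02) and 11 in HG+ORG vs HG (median 0.57), where the medians of all genes were 0.00 and 0.04. Without HG+ORG replicate 18, 8 of the 14 were above 0 in HG+ORG vs HG (median 0.28).

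**Figure D3:**
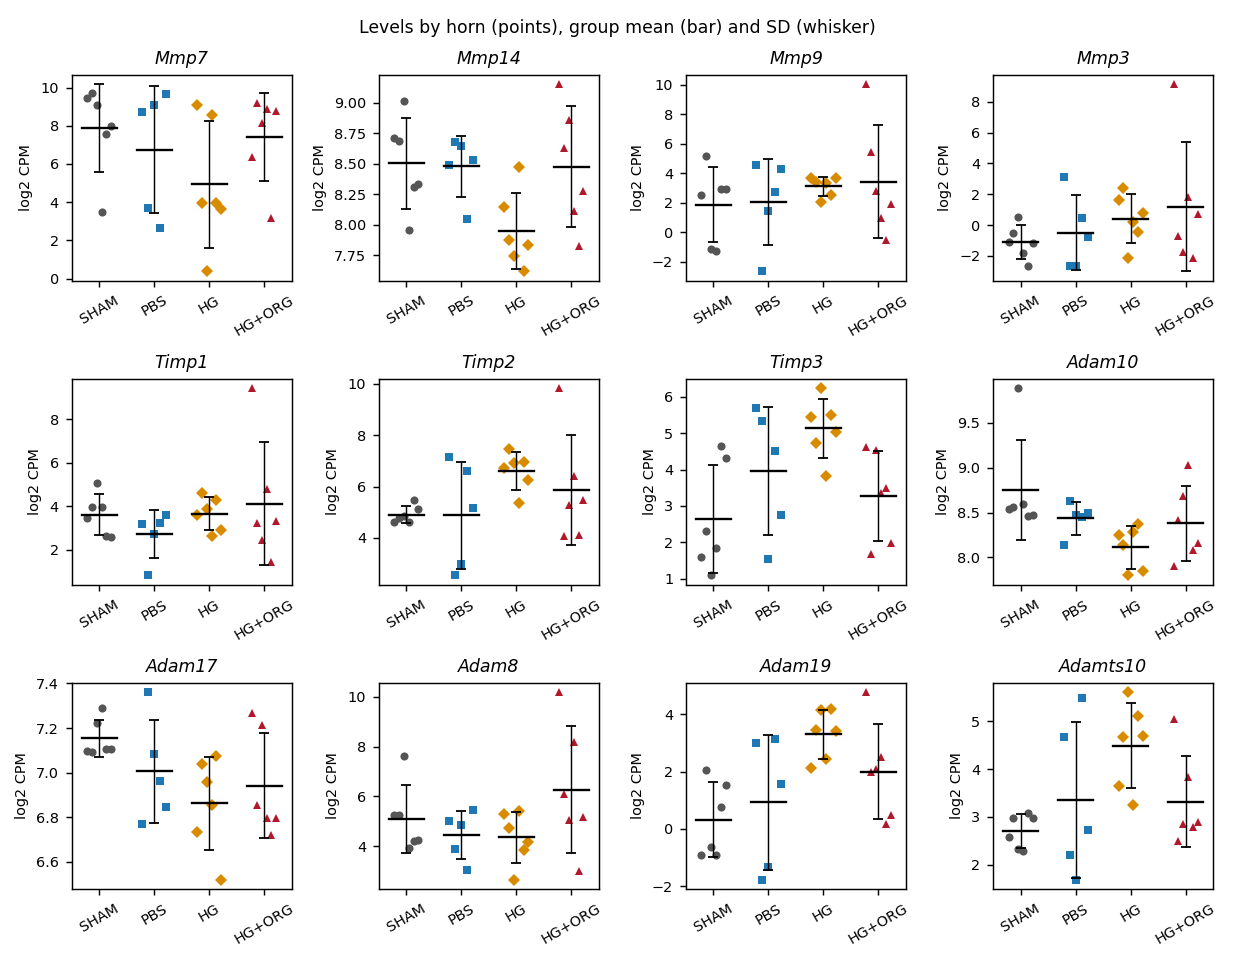
Levels of 12 members by group: each point is 1 horn (log2 CPM with a prior count of 2), the bar is the group mean and the whisker the SD (n = 6, 5, 6 and 6). Vertical scales differ between panels; Adam17 spans less than 1 log2 unit and Mmp7 and Mmp9 span more than 9, and the topmost HG+ORG point in the Mmp3, Mmp9, Timp1, Timp2 and Adam8 panels is replicate 18.

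Of the inhibitors, Timp1, a secreted protein that inflammation is known to induce, was 5.85 to 33.4 CPM in SHAM (median 13.1). In PBS it was 1.62, 6.43, 8.93, 9.27 and 12.1 CPM. The HG horns had 6.14 to 24.0 CPM (median 13.3). The ranges of these 3 groups overlapped. HG+ORG levels were 2.59 to 27.5 CPM in 5 horns and 691 CPM in replicate 18, 20.7 times the next highest horn. Its log2 fold in HG+ORG vs PBS was 4.01 ± 1.19 (edgeR, adjusted p = 0.709), the smallest member p of that comparison, and it was 0.50 ± 0.60 without replicate 18. For HG+ORG vs HG it went from 3.15 ± 1.05 (adjusted p = 0.281) to -0.37 ± 0.58, and in HG+ORG vs SHAM from 3.10 ± 1.05 to -0.43 ± 0.58.

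Timp2, which takes part in the activation of proMMP2 by Mmp14 as well as blocking MMPs, was 24.2 to 44.4 CPM in SHAM (median 27.9). The PBS horns had 5.66, 7.72, 36.0, 96.1 and 144 CPM. HG levels were 40.6 to 177 CPM (median 113), and 5 of 6 HG horns were above every SHAM horn. In HG+ORG it was 16.7 to 84.8 CPM in 5 horns and 910.0 CPM in replicate 18. The fitted log2 fold in HG vs SHAM was 1.81 ± 0.87 (edgeR, adjusted p = 0.443). For HG+ORG vs SHAM it was 2.60 ± 0.90 with replicate 18 and 0.40 ± 0.62 without it.

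Timp3, the inhibitor that stays bound to the matrix and also blocks Adam17 and aggrecanases, had its highest level of all horns in HG replicate 14 and not in HG+ORG replicate 18. It was 1.98 to 25.0 CPM in SHAM (median 4.13), with replicates 5 and 6 at 25.0 and 19.6 CPM and the other 4 at most 4.80 CPM. PBS levels were 2.73, 6.55, 22.6, 40.0 and 51.0 CPM. In HG it was 14.1 to 75.1 CPM (median 38.1), and in HG+ORG 3.06 to 24.5 CPM (median 10.5). The log2 fold was 2.03 ± 0.73 in HG vs SHAM (edgeR, adjusted p = 0.280), 1.35 ± 0.74 in PBS vs SHAM (adjusted p = 1.00) and -1.65 ± 0.72 in HG+ORG vs HG (adjusted p = 0.448). Without replicate 18 the last was -1.97 ± 0.77. Timp4, the inhibitor known from fat and heart, was under 3 counts in 14 horns. Its highest level, 10.2 CPM, was in HG replicate 12, and its fold in HG+ORG vs HG, -2.97 ± 1.35 (edgeR, adjusted p = 0.476), was -0.91 without that horn. The 4 horns with the most Timp4 were HG replicate 12, SHAM replicates 5 and 6 and PBS replicate 7. Their 8 adipocyte markers summed to 13135, 2605, 1972 and 978 CPM. Of the other 19 horns only HG replicate 13, with 1329 CPM, had more than 655 CPM of these markers, and its Timp4 level was 0.557 CPM. These markers were set beside Timp4 after its values were seen, and the part of fat cells in the Timp4 level was not tested.

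The summed MMP level per summed TIMP level, on counts not divided by gene length, was 7.64 to 37.3 in SHAM (median 17.0). The values in PBS were 3.67, 5.21, 14.1, 27.7 and 72.5. The HG horns had 1.76 to 16.7 (median 3.05), and the HG+ORG horns 1.79 to 45.2 (median 13.6). The HG horns other than replicate 15 were at or under 6.57, below every SHAM horn. The summed TIMP level was 60.9 to 227 CPM in HG and 38.2 to 78.4 CPM in SHAM. The summed MMP level was 352 to 1122 CPM in HG (median 471) and 330.1 to 1575.0 CPM in SHAM (median 1076). Mmp7, which enters that sum, had a median of 15.4 CPM in HG and 401 CPM in SHAM. Of the 14 MMPs tested, 7 had a fold above 0 and 7 below 0 in HG vs SHAM, so the sums do not describe the whole family. The groups overlapped for the ratio and for both sums, and none of these was tested.

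Among the ADAM sheddases, Adam10 and Adam17 were the only members lower in every HG horn than in every SHAM horn. Adam10 cuts Notch receptors and E-cadherin. It was 352 to 946 CPM in SHAM (median 375), with replicate 3 at 946 CPM and the other 5 at most 387 CPM. In PBS it was 281, 349, 356, 361 and 397 CPM. HG levels were 223 to 331 CPM (median 292), and those in HG+ORG 240.1 to 522 CPM (median 314). The log2 fold in HG vs SHAM was -0.73 ± 0.24 (edgeR, adjusted p = 0.265), and -0.39 without SHAM replicate 3. In PBS vs SHAM it was -0.41 ± 0.25 (adjusted p = 1.00), and -0.09 without that replicate.

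Adam17, which releases TNF and ligands of the EGF receptor, was 137 to 156 CPM in SHAM (median 138). The PBS horns had 109, 115, 125, 136 and 164 CPM, and the HG horns 91.7 to 135 CPM (median 119.8). The HG+ORG horns had 105 to 154 CPM (median 113). HG was below SHAM by a small step, with a log2 fold of -0.28 ± 0.13 (edgeR, adjusted p = 0.410), and the fold was -0.22 to -0.33 when any one horn of the 2 groups was left out. Adam9 was 151 to 461 CPM in SHAM and 101.3 to 181 CPM in PBS, with a log2 fold of -0.68 ± 0.29 in PBS vs SHAM (edgeR, adjusted p = 1.00) and -0.37 without SHAM replicate 3. Adam15 was 30.6 to 79.2 CPM in 22 horns and 188 CPM in HG+ORG replicate 18.

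Adam8, a protease of leukocytes and macrophages, was the member with the smallest p in HG+ORG vs HG. It was 15.3 to 198 CPM in SHAM (median 28.7). PBS levels were 8.15, 14.7, 28.5, 31.8 and 44.2 CPM, and those in HG 6.16 to 43.0 CPM (median 22.3). HG+ORG levels were 7.78 CPM in replicate 22, 32.7 to 69.3 CPM in 3 horns, 288 CPM in replicate 21 and 1162 CPM in replicate 18. The level was high in 2 of 6 HG+ORG horns, and the groups overlapped. Its log2 fold in HG+ORG vs HG was 3.44 ± 0.97 (edgeR, adjusted p = 0.270; DESeq2, 3.47, adjusted p = 0.0101), and 1.82 ± 0.79 without replicate 18. For HG+ORG vs PBS it was 3.38 ± 1.05 (edgeR, adjusted p = 0.709) and 1.78 ± 0.84 without it, and for HG+ORG vs SHAM 2.29 ± 0.93 (adjusted p = 0.397) and 0.65 ± 0.78. The 3 highest Adam8 horns, the third being SHAM replicate 3, were the 3 highest for the macrophage gene Cd68, with 361 to 1763 CPM against at most 97.4 CPM in the other 20. Cd68 comes from a list of 12 macrophage and monocyte markers. By their mean log2 CPM, SHAM replicate 3 (2.71) was below every horn but PBS replicate 8 (1.22) and SHAM replicate 4 (2.62). That mean was 8.58 in HG+ORG replicate 18 and 5.78 in HG+ORG replicate 21.

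Adam19 and Adam12 are sheddases known from mesenchymal cells and muscle. Adam19 was 0.370 to 4.04 CPM in SHAM (median 1.03). The values in PBS were 0.135, 0.241, 2.82, 7.80 and 8.75 CPM. In HG it was 4.24 to 18.2 CPM (median 10.7), above every SHAM horn, and in HG+ORG 0.964 to 27.1 CPM (median 3.95). The fitted log2 fold in HG vs SHAM was 2.78 ± 0.93 (edgeR, adjusted p = 0.265). Adam12 had SHAM, HG and HG+ORG medians of 2.39, 22.2 and 4.42 CPM and a log2 fold in HG vs SHAM of 2.62 ± 1.272 (edgeR, unadjusted p = 0.0517, adjusted p = 0.447), and the groups overlapped. Adam28, of epithelium and lymphocytes, had its lowest level, 2.23 CPM, in HG+ORG replicate 18, and Adam33 ran from 0.0717 to 69.2 CPM within HG alone. The remaining ADAMs were low: Adam1a, Adam4 and Adam7, known mostly from the male tract, were at most 2.81 CPM, Adam11 at most 6.88 CPM, and Adam23 at most 1.41 CPM outside HG+ORG replicate 18, where it was 5.32 CPM.

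Adam22, a member without a working protease site that is known as a receptor for secreted Lgi proteins, had the smallest p in HG vs SHAM. It was 0.343 to 1.11 CPM in SHAM (median 0.636). In PBS it was 0.322, 0.673, 0.845, 2.26 and 3.35 CPM. The HG horns had 1.04 to 7.96 CPM (median 2.74), and the HG+ORG horns 0.279 to 2.48 CPM (median 0.571). All but 1 of the HG horns were above all SHAM horns. The log2 fold was 2.31 ± 0.61 in HG vs SHAM (edgeR, adjusted p = 0.248; DESeq2, 2.31, adjusted p = 0.0248) and -1.94 ± 0.60 in HG+ORG vs HG (edgeR, adjusted p = 0.273). In the comparisons with PBS it was 1.15 ± 0.62 for PBS vs SHAM and 1.16 ± 0.61 for HG vs PBS (edgeR, adjusted p = 1.00 and 0.991). The 4 highest horns for Adam22 were also the 4 highest for Mmp17 and for the smooth muscle myosin gene Myh11, with 109.5 to 670.2 CPM of Myh11 against at most 84.0 CPM elsewhere: HG replicates 13, 16 and 17 and PBS replicate 10.

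The ADAMTS genes were the family with the largest median fold in HG vs SHAM. Of 14 tested, 12 had a fold above 0 (median 1.99), and 8 met an unadjusted p under 0.05, all higher in HG. In HG+ORG vs HG, which shares the HG horns, 13 of 14 had a fold below 0 (median -0.70), and 3 met it. Without HG+ORG replicate 18, 13 were below 0 (median -1.78) and 8 met it, all lower in HG+ORG. In PBS vs SHAM 12 of 14 were above 0 (median 0.59) and 1 met it. The median of all genes was between 0.00 and 0.06 in the 6 comparisons.

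Adamts10, which binds fibrillin microfibrils, was the ADAMTS gene whose HG and SHAM horns did not overlap. It was 4.69 to 8.26 CPM in SHAM (median 6.74). The PBS horns had 3.06, 4.44, 6.41, 25.4 and 44.4 CPM. HG levels were 9.29 to 48.5 CPM (median 25.5), and those in HG+ORG 5.45 to 32.7 CPM (median 7.17). The log2 fold was 1.99 ± 0.60 in HG vs SHAM (edgeR, adjusted p = 0.248; DESeq2, 1.99, adjusted p = 0.0390) and 1.36 ± 0.61 in PBS vs SHAM (edgeR, adjusted p = 1.00). Without PBS replicate 10 the PBS vs SHAM fold was 0.60. Adamts19, a low-level gene of ovary and heart valves, was 0.0685 to 0.987 CPM in SHAM and 0, 0, 0.0673, 0.503 and 3.09 CPM in PBS. In HG 4 horns had 4.27 to 11.9 CPM and 2 had at most 0.320 CPM, and HG+ORG had 0 to 1.98 CPM. Its log2 fold was 3.51 ± 1.16 in HG vs SHAM (edgeR, adjusted p = 0.265), 2.87 ± 1.19 in HG vs PBS (adjusted p = 0.991) and -2.82 ± 1.11 in HG+ORG vs HG (adjusted p = 0.365), and the HG vs PBS fold was 5.05 without PBS replicate 10.

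The proteoglycan-cleaving ADAMTS enzymes cut versican and aggrecan. Adamts1, which the ovary and uterus are known to need for remodelling, was 6.17 to 40.3 CPM in SHAM (median 14.6). PBS levels were 0.741, 3.30, 23.9, 33.4 and 119 CPM. In HG it was 20.8 to 128 CPM (median 61.5), and in HG+ORG 2.52 to 53.6 CPM (median 15.1). The log2 fold was 2.05 ± 0.83 in HG vs SHAM (edgeR, adjusted p = 0.342) and -1.85 ± 0.83 in HG+ORG vs HG (adjusted p = 0.467). Adamts9 split the horns: SHAM replicates 3 and 4 had 186 and 118 CPM and HG replicates 13, 14 and 16 had 92.2 to 100.3 CPM, while the other 18 horns had 16.5 to 62.5 CPM. Its log2 fold was -1.21 ± 0.50 in HG+ORG vs SHAM (edgeR, adjusted p = 0.412), and -0.65 without SHAM replicate 3. In PBS vs SHAM it was -1.07 ± 0.53 with that replicate and -0.51 without it, and in HG vs PBS 0.95 ± 0.53 (adjusted p = 0.991). Adamts4 had group medians of 6.79, 6.69, 12.3 and 9.07 CPM in SHAM, PBS, HG and HG+ORG. Adamts5 had medians of 2.54, 2.25, 8.87 and 1.18 CPM and was 26.7 CPM in HG+ORG replicate 18, and the groups overlapped for both.

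The procollagen N-proteinases trim the amino ends of fibrillar procollagens. Adamts2 was 6.87 to 11.7 CPM in SHAM (median 8.38). The values in PBS were 2.49, 7.34, 8.66, 15.7 and 38.0 CPM. The HG horns had 6.95 to 73.0 CPM (median 21.6), 5 of 6 horns being above all SHAM horns. In HG+ORG it was 3.75 to 23.1 CPM in 5 horns and 113 CPM in replicate 18. The log2 fold in HG vs SHAM was 2.00 ± 0.79 (edgeR, adjusted p = 0.327). Adamts14 had medians of 0.583 CPM in SHAM and 4.19 CPM in HG and a log2 fold of 2.41 ± 1.08 (edgeR, adjusted p = 0.395), and Adamts12 had medians of 0.912 and 8.85 CPM and a log2 fold of 2.82 ± 1.31 (adjusted p = 0.422). For Adamts7 the log2 fold of 2.01 ± 0.81 (edgeR, adjusted p = 0.338) was 0.98 without HG replicate 14, the horn with 34.1 CPM. Adamts15 had medians of 5.27 CPM in SHAM and 14.2 CPM in HG and a log2 fold of 1.36 ± 0.58 (edgeR, adjusted p = 0.366). Adamts16 was 46.4 CPM in HG replicate 14, and its median over the 23 horns was 1.03 CPM. Adamts6 had group medians of 26.3 to 34.6 CPM and Adamts17 of 1.28 to 1.70 CPM, and their groups overlapped. The untested Adamts3, Adamts8, Adamts13 and Adamts18 were at most 3.63, 3.98, 4.16 and 1.37 CPM in any horn.

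**Figure D4:**
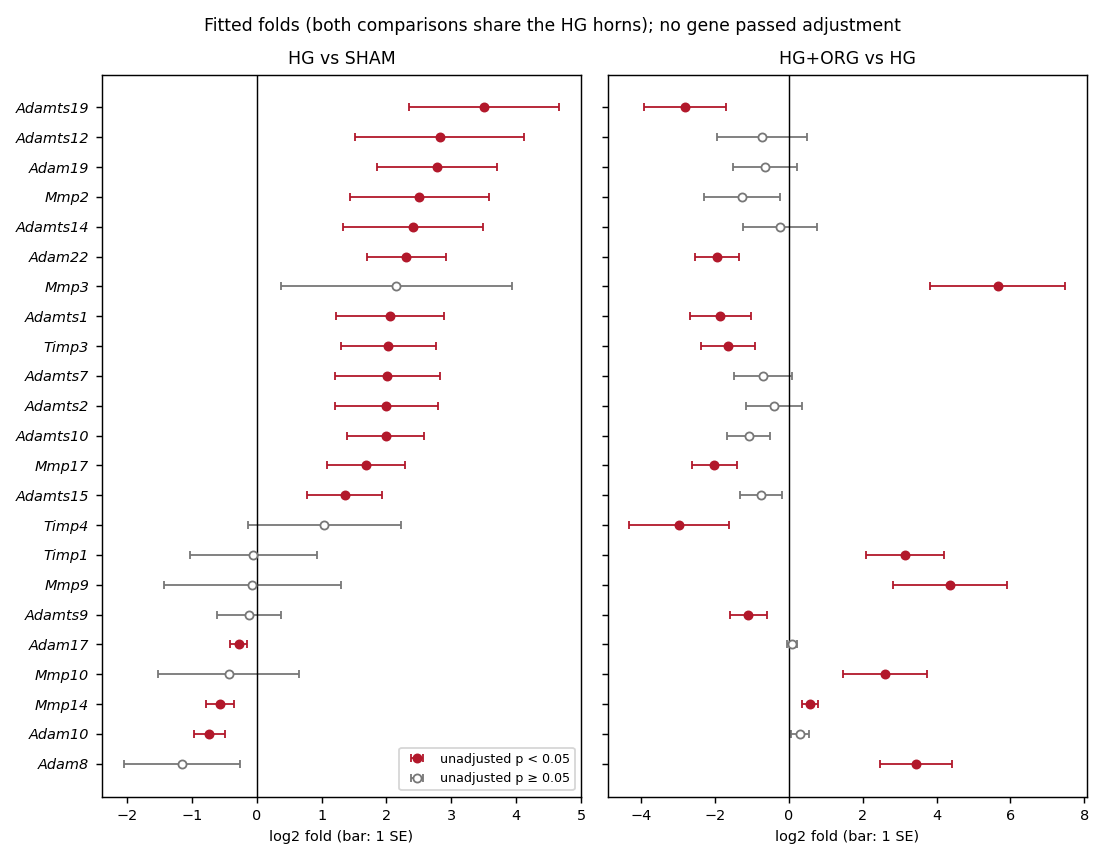
Fitted log2 folds (points) with 1 SE (bars) in HG vs SHAM (left) and HG+ORG vs HG (right) for the 23 members with an unadjusted p under 0.05 in either, filled where that comparison met it. Most ADAMTS genes, Timp3 and Adam22 lie to the right on the left panel and to the left on the right panel; the HG horns enter both, and none passed adjustment.

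In HG vs SHAM the markers of several other cell types were higher along with these genes. The 10 smooth muscle markers summed to 47.0 to 125 CPM in SHAM and 76.7 to 3281 CPM in HG, and all 10 had a fold above 0 at an unadjusted p under 0.05. Of these only Myocd was at 0 in any horn. The 10 stromal markers summed to 219 to 538 CPM in SHAM and 397 to 2526 CPM in HG. The 10 endothelial markers summed to 20.3 to 116 CPM and 77.8 to 852 CPM, with none at 0 in these 12 horns, and the 12 macrophage markers to 175 to 677 CPM and 271 to 1110.0 CPM. At an unadjusted p under 0.05, 9 of 10 stromal, 10 of 10 endothelial and 2 of 12 macrophage markers were higher in HG and none was lower, as were 4 of 5 mast cell, 5 of 6 T and NK cell, 1 of 6 mesothelial and 1 of 4 gland markers tested. Of 8 adipocyte markers 7 had a fold above 0 and of 7 neutrophil markers 6 had a fold below 0 (medians 1.43 and -1.42), none at that p. The 10 epithelial markers all had a fold below 0 (median -0.55), none at that p, and summed to 6569 to 15447 CPM in SHAM and 4033 to 8302 CPM in HG. With the mean log2 CPM of the smooth muscle markers as a covariate, 4 of 47 members instead of 16 met an unadjusted p under 0.05. The share of all genes that met it was 7.38%. All 10 markers in that covariate were higher in HG, along with most stromal and all endothelial markers. The lower count therefore cannot separate smooth muscle content from treatment or from other cell types. The part of smooth muscle and of the other marker lists was not tested. In a bulk sample fewer cells of a type and less RNA per cell cannot be told apart.

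In HG+ORG vs HG 7 of 12 macrophage and 4 of 7 neutrophil markers were higher at an unadjusted p under 0.05, along with Mmp3, Mmp9, Mmp10, Mmp14, Timp1 and Adam8. The lower markers were 8 of 10 for smooth muscle, 6 of 8 for adipocytes, 4 of 10 for stroma, 3 of 6 for T and NK cells, 2 of 6 for mesothelium and 1 of 10 for endothelium, along with Adam22, Adamts1, Adamts9, Adamts19, Mmp17, Timp3 and Timp4. With replicate 18 the highest macrophage sum of the group was 20940 CPM. Without replicate 18 no macrophage or neutrophil marker was higher at that p, and the HG+ORG horns had macrophage sums of 164 to 1887 CPM. All 10 smooth muscle, all 10 endothelial and 8 of 10 stromal markers were then lower. So were 7 of 8 adipocyte, 5 of 6 T and NK cell and 1 of 6 mesothelial markers, while 1 of 10 epithelial markers was higher. In that setting 2 members met an unadjusted p under 0.05 in HG+ORG vs PBS (Adam8 higher, Adam22 lower), 3 in HG+ORG vs SHAM (Adam17, Adamts9 and Timp4, all lower) and 17 in HG+ORG vs HG. Of these 17, only Adam8 was higher in HG+ORG. The 16 that were lower included Adam19, Adam22, Mmp2, Mmp17, Mmp19, Timp2, Timp3, Timp4 and 8 ADAMTS genes, and Adam22 had the largest change relative to its error (-2.57 ± 0.61; edgeR, adjusted p = 0.169). The shares of all genes in these 3 comparisons were 2.77, 3.44 and 12.0%. The part of those cell types in the HG+ORG differences was not tested.

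**Figure D5:**
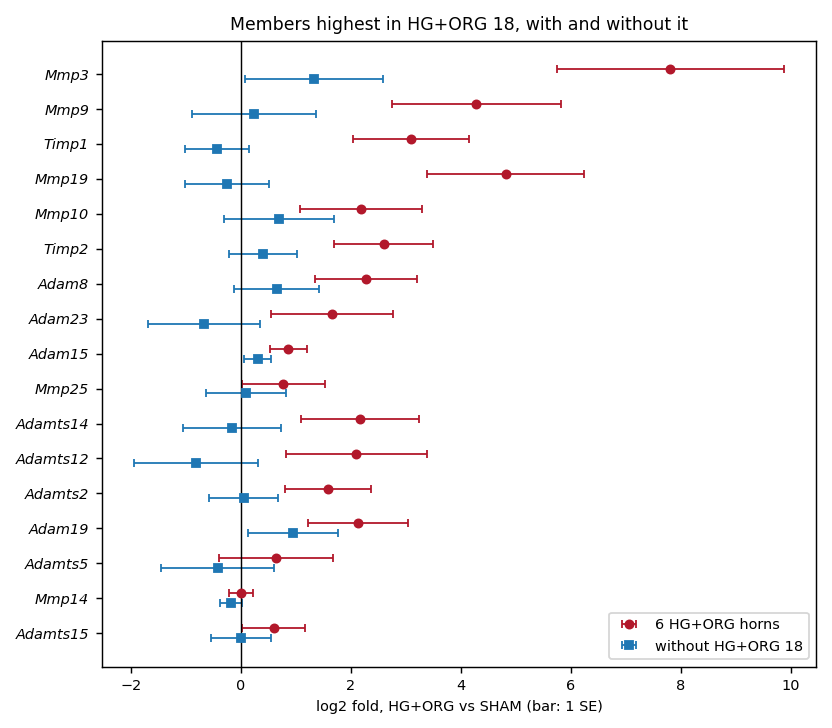
Log2 folds in HG+ORG vs SHAM (points) with 1 SE (bars) for the 17 tested members that were highest in HG+ORG replicate 18, from all 6 HG+ORG horns (circles) and from the other 5 (squares). The Mmp3 fold is 7.81 with that horn and 1.33 without it, and the folds of Timp1, Mmp19, Adam23, Adamts5, Adamts12 and Adamts14 change sign; that of Mmp14 goes from 0.00 to -0.18.

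Genes that act on these enzymes were taken as separate lists. Of 25 regulators of matrix proteases, 5 met an unadjusted p under 0.05 with a higher and 1 with a lower level in HG vs SHAM. The shares of all genes were 9.15 and 2.12%. Reck, a membrane protein that inhibits several MMPs, had medians of 1.49 CPM in SHAM and 9.72 CPM in HG and a log2 fold of 2.49 ± 0.77 (edgeR, adjusted p = 0.251). Pcsk5, a convertase that cuts proproteins, was highest in HG replicate 14, as Reck was, and had medians of 3.93 and 16.7 CPM and a log2 fold of 2.56 ± 0.63 (edgeR, adjusted p = 0.248). Frmd8, a partner of the iRhoms that keep Adam17 on the cell surface, was 34.6 to 55.0 CPM in SHAM and 24.3 to 38.3 CPM in HG, with a log2 fold of -0.42 ± 0.16 (adjusted p = 0.305). In HG+ORG vs HG 3 regulators were higher and 3 lower, against 5.18 and 4.63% of all genes. Among the 3 lower were Reck (-2.26 ± 0.77) and Pcsk5 (-2.16 ± 0.62), with an edgeR adjusted p of 0.287 and 0.270. Without HG+ORG replicate 18 the counts were 1 and 7, against 479 and 1638 of 17664 genes. Bsg, the MMP inducer basigin, and Furin, which opens the membrane-type MMPs, had overlapping ranges in all groups, from 431 to 1832 CPM and 102 to 353 CPM.

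Of 17 other matrix-degrading enzymes, 5 were higher and 1 lower in HG+ORG vs HG at an unadjusted p under 0.05, against 5.18 and 4.63% of all genes. Without replicate 18 none was higher and 4 were lower, against 479 and 1638 of 17664 genes. Of the 17, 10 were highest in HG+ORG replicate 18 (the share over all genes was not counted), and the other 7 in HG replicates 12 and 14 and PBS replicates 8 and 9. Ctsk, the collagen-cutting cathepsin of osteoclasts and giant cells, had 3230.3 CPM there, against at most 27.6 CPM in the other 22 horns, and Ctss, a cathepsin of antigen-presenting cells, had 5460.3 CPM, against at most 377 CPM. Of 14 substrates that ADAM enzymes are known to release, 5 were higher in HG+ORG vs HG and none lower, against the same 5.18 and 4.63%. Without replicate 18 only Cxcl16 was higher (1.304 ± 0.58, edgeR, adjusted p = 0.358). The hyaluronan receptor gene Cd44 had 1210.5 CPM in replicate 18 and at most 66.9 CPM elsewhere, and its log2 fold went from 2.57 ± 0.91 (edgeR, adjusted p = 0.313) to -0.33 ± 0.48 without that horn. Tnf went from 1.89 ± 0.86 (edgeR, adjusted p = 0.477) to 1.73 ± 0.90. Hbegf, a growth factor shed by Adam17, had medians of 30.7, 30.8, 33.6 and 38.3 CPM in SHAM, PBS, HG and HG+ORG. In the other comparisons the regulators had 0 higher and 1 lower (PBS vs SHAM), 2 and 0 (HG vs PBS), 6 and 1 (HG+ORG vs PBS) and 7 and 0 (HG+ORG vs SHAM). The other enzymes had 1 higher in HG vs SHAM, 3 in HG+ORG vs PBS and 4 in HG+ORG vs SHAM, with none lower. The substrates had 3 higher in HG+ORG vs PBS and 2 in HG+ORG vs SHAM, with none lower. The shares of all genes, higher and lower, were 1.52 and 0.655% in PBS vs SHAM and 2.38 and 0.988% in HG vs PBS. They were 4.86 and 1.23% in HG+ORG vs PBS, 9.15 and 2.12% in HG vs SHAM and 8.09 and 1.82% in HG+ORG vs SHAM. Of these 56 genes none passed adjustment with edgeR.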

How the data were processed

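RNA of endometrium from 23 uterine horns was sequenced as stranded poly(A) libraries. The authors deposited raw counts per gene, and the submitters' processing notes name build GRCm39, the aligner HISAT2 2.2.1 and the counter featureCounts 2.0.3, besides Trimmomatic 0.39 and quality checks. Annotation release and strand setting: not given in the sources used here. Every feature in the table reached 10 counts in 3 or more libraries; genes low in all horns are not analysed here.

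Groups came from the sample titles. All 23 libraries were fitted together with edgeR 4.0.16 (R 4.3.3): TMM factors, filterByExpr by group (974 features removed, 17708 tested), the quasi-likelihood test for the 6 pairs of groups and for all 4, and Benjamini-Hochberg adjustment over all genes tested. SE is the size of the log2 fold divided by the square root of F. A fitted fold compares mean counts, so a single high horn can set it. Log2 CPM used a prior count of 2. Alternatives were RLE factors, DESeq2 1.42.0, limma-trend 3.58.1, no filter, only the 2 groups compared, a smooth muscle covariate and leaving out each library. On simulated HG and PBS counts with 200 genes changed 8-fold, 100% were recovered at a dispersion of 0.05 (17387 genes) and 81% at 0.5 (17503 genes). Each run gave all genes the same dispersion and held no outlying horn. The power to call members that vary as widely as those described here was therefore not measured.

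Members and gene lists were chosen with earlier results of these data known. The counts at an unadjusted p under each setting, and the list counts without HG+ORG replicate 18, were added after seeing the data. Named genes were those of a role list (gelatinases, stromelysins, TIMPs and so on) and, in 4 of the comparisons, the 3 higher and 3 lower members of smallest p with a mean of at least 1 CPM; other members are named within counts and ranges of their role list, and Ltf, Csf3r, Cd68, Pdgfra and Myh11 were set beside members after their values were seen. The rule left out a single gene, which is not analysed here. The 341 features with no symbol were kept in the fit. Promoters came from a RefSeq table of GRCm38.p6.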

Additional observations from a re-analysis of the deposited data

Results flagged for a closer look

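A horn was set apart when its log2 CPM lay far from the rest of its group of 4 to 10 horns by Dixon's criterion, which flags about 1 in 20 groups by chance. Of 136 groups of horns (34 members in 4 groups), 13 had such a horn, 9 on the high and 4 on the low side. HG+ORG replicate 18 was the horn in 6 of them. Its log2 CPM was 9.15 for Mmp3, 8.47 for Mmp19, 5.37 for Mmp8, 4.52 for Adamts7, 4.14 for Adamts14 and 0.72 for Timp4.

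SHAM replicate 3 was high for Adam10 (9.89) and for the leukocyte protease Adam8 (7.63). SHAM replicate 4 was low for Mmp7 (3.46) and Mmp15 (4.93), both of which were also low in several HG horns. Timp4 was high in PBS replicate 7 (1.38). On the low side, Adamts4 in HG+ORG replicate 22 had 0.71, and Mmp19 in HG replicate 15 had 0.95. HG replicate 15 also had the lowest stromal and endothelial marker sums of the HG group.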

How the results depend on the processing

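No paired analysis was possible because the groups share no replicate numbers. With edgeR no member passed adjustment under RLE factors, without the filter, with the smooth muscle covariate or without any one library, and limma-trend called none. DESeq2 called 1 in HG+ORG vs HG, 2 in HG vs SHAM and 2 over the 4 groups. Of all 17708 genes it called 162, 281 and 278 in these tests. Fitting only the HG and SHAM horns called 5 of 41 members tested (Adam19, Adam22, Adamts10, Adamts15 and Timp2), and 386 of 16216 genes. The fold sizes in these fits were 3.47 for Adam8 (HG+ORG vs HG), 2.31 for Adam22 and 1.99 for Adamts10 with DESeq2, and 2.80 for Adam19, 2.33 for Adam22, 2.01 for Adamts10 and 1.38 for Adamts15 with only 2 groups.

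Counts at an unadjusted p under 0.05 that moved by more than 1.5 times were as follows. The share of all genes that met it is given in brackets. limma-trend gave 1 in PBS vs SHAM (0.966%), 10 in HG vs PBS (5.22%) and 0 in HG+ORG vs PBS (2.67%). It gave 0 in HG+ORG vs SHAM (6.17%) and 7 over the 4 groups (5.56%). The smooth muscle covariate gave 4 in HG vs PBS (3.25%) and 9 in HG+ORG vs PBS (8.71%). With that covariate HG vs SHAM had 4 (7.38%) and the test over the 4 groups had 7 (9.33%). DESeq2 gave 2 in HG+ORG vs PBS (6.34%), and no filter gave 4 of 53 in HG vs PBS (3.65%). Leaving out 1 library of the groups compared left 46 to 51 members tested. PBS vs SHAM then gave 0 (SHAM 3, 1.74%) to 5 (PBS 9, 2.73%). HG vs PBS gave 1 (PBS 9, 1.51%, and HG 13, 14, 16 or 17, 2.77 to 2.80%) to 12 (PBS 10, 7.29%). HG+ORG vs PBS gave 2 (HG+ORG 18, 2.77%) to 7 (PBS 7, 6.73%). HG+ORG vs HG gave 10 (HG 12, 10.4%) to 17 (HG+ORG 18, 12.0%). HG vs SHAM gave 11 (HG 14, 7.76%) to 20 (HG 15, 14.0%). HG+ORG vs SHAM gave 3 (HG+ORG 18, 3.44%) to 13 (HG+ORG 21, 10.7%). The test over the 4 groups gave 8 (HG 14, 7.67%) to 19 (PBS 10, 11.2%). PBS vs SHAM also gave 1 without SHAM 4 or PBS 7 and 4 without SHAM 5 or 6, and HG vs PBS gave 6 without PBS 7. Leaving out a library of another group widened only the HG vs SHAM range, to 22 (PBS 9, 11.4%).

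Of 58 member folds examined, 6 changed sign, all without HG+ORG replicate 18. Over the libraries left out, the Mmp3 fold ran from -0.95 to 7.89 in HG+ORG vs PBS and from -0.81 to 6.27 in HG+ORG vs HG. The Timp1 fold ran from -0.37 to 3.45 against HG and from -0.43 to 3.56 against SHAM. The Mmp19 fold ran from -0.92 to 4.63 against PBS and from -0.26 to 5.34 against SHAM. The Mmp17 fold in HG vs SHAM was 1.01 without HG replicate 16. The cause was not tested. Members near the floor of 3 counts (Timp4, Mmp8, Adamts19 and Mmp3 in most horns) cannot be ordered between horns at this depth.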

Other observations

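The ratio of Mmp9 to Timp1 and of Mmp2 to Timp2, on counts not divided by gene length, described the enzyme and its usual inhibitor within a horn. Mmp9 per Timp1 was 0.00888 to 2.35 in SHAM (median 0.871), 0 to 2.65 in PBS (median 0.685), 0.268 to 1.71 in HG (median 0.737) and 0.0640 to 4.73 in HG+ORG (median 0.814). In HG+ORG replicate 18, where both genes were highest, the ratio was 1.55, inside the range of the other HG+ORG horns. Mmp2 per Timp2 was 0.0609 to 0.256 in SHAM, 0.0119 to 0.196 in PBS and 0.0236 to 0.204 in HG+ORG. In HG it was 0.0997 to 0.928, with 5 horns at or under 0.257 and the highest value in replicate 14, the horn with the most Mmp2.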
